A study of Mus musculus with 12 samples.

Results

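miR-9 was followed through 12 hippocampal small RNA libraries as the products of 3 hairpin genes, Mir9-1, Mir9-2 and Mir9-3, out of 2202 annotated mouse miRNA hairpins. A sequence tag of 18 nt or longer belonged to miR-9 when all of its bases matched 1 of the 3 hairpins exactly. It was assigned to the 5p arm (the guide, miR-9-5p) or the 3p arm (the star, miR-9-3p) by the position of its midpoint on the hairpin. There were 80 such tags with 419636 counts, which is 1.40% of the 30041102 miRNA counts of the 12 libraries. Of these, 41 tags with 379343 counts were on the 5p arm and 39 tags with 40293 counts were on the 3p arm, a pooled ratio of 9.41.

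Each library was made from the hippocampus of an individual young adult male C57BL/6 mouse (C57BL/6NCrl in the labels). Libraries NT-1 and NT-2, the 2 untreated ones, came from mice without electroconvulsive shock (ECS), a brief current through the brain that depolarizes neurons in synchrony. The other 10 libraries came from mice killed 0.5, 1, 3, 6 or 24 h after ECS, with 2 mice at each time. The suffixes -1 and -2 mark 2 time courses, called the first and the second course below, of 6 libraries each, and the labels name no other treatment or allele in any group. By depth, the study's own naming of the untreated libraries runs the other way, its NT-1 being the deeper, and names and courses here follow the labels. In the files NT-1 had 29.1% miRNA counts among accepted reads and NT-2 56.6%, each within the range of the ECS libraries that share its number, and the deviations of NT-1 from its group mean correlated with those of the other libraries of its number at r = 0.364 to 0.708 over 213 arms. Whole hippocampus was used, so fewer cells of a type and less RNA per cell cannot be told apart in any level given here. Accepted reads ranged from 1897490 to 7657222 a library. Reads that matched miRNA hairpins ranged from 439734 to 2221162 in the first course and from 1321880 to 4284186 in the second.

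A miRNA hairpin is cut by Drosha in the nucleus and by Dicer in the cytoplasm into a short duplex, 1 strand of which is loaded into an Argonaute protein. The loaded strand finds its targets mainly through its seed, bases 2 to 8 counted from its 5′ end, so a shift of the 5′ end by 1 base changes the seed, whereas a change at the 3′ end does not. miR-9 is enriched in the brain, where it is known for its part in the differentiation of neural progenitors. Both of its arms are known to be functional, and repressors of neuronal genes are among the known targets of each, REST for the 5p arm and its partner CoREST for the 3p arm.

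The mature arms and the hairpins they are cut from are shown because all values below refer to positions on them. In the mature sequences capitals mark the seed, and in the hairpins capitals mark the 2 mature arms. All are RefSeq sequences (GRCm38.p6), in which 3 of 3 Mir9 genes were matched by symbol.
miR-9-5p: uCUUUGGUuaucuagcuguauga
miR-9-3p: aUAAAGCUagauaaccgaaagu
Mir9-1: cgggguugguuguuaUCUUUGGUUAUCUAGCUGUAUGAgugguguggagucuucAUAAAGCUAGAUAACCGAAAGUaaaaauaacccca
Mir9-2: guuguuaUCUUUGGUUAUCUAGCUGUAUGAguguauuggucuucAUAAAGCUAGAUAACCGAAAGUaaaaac
Mir9-3: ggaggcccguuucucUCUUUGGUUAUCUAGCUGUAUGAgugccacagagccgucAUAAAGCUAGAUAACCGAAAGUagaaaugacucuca

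On GRCm38, Mir9-1 spans bases 88215598 to 88215686 of chromosome 3 on the plus strand, inside introns of the long intergenic noncoding RNA Gm3764. Mir9-2 spans 83738814 to 83738885 of chromosome 13 on the plus strand and lies in an exon of transcript C130071C03Rik-201 of another long intergenic noncoding RNA, and in an intron of C130071C03Rik-204. Mir9-3 spans 79505264 to 79505353 of chromosome 7 on the plus strand, in introns of its host transcript Mir9-3hg. The mature arms are identical in the 3 hairpins, so 54 of the 80 tags matched all 3. These tags held 99.5% of the miR-9 counts (417690), and a level of miR-9 is therefore the sum of the 3 genes.

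The small remainder came from tags that reach past the shared bases. Past its annotated end the 3p arm differs between Mir9-3 and the other two hairpins, as the following pair of 23-nt tags shows, with the differing last base in capitals.
Mir9-1 or Mir9-2: taaagctagataaccgaaagtaA
Mir9-3: taaagctagataaccgaaagtaG
Tags that told these loci apart at this base summed to 1699 counts for Mir9-1 or Mir9-2 and 14 counts for Mir9-3. Mir9-3 thus held 0.817% of the counts that could be told apart there (Wilson 95% interval 0.487% to 1.37%, counting error only). These are long 3p tags, mostly from the second course, and need not divide between loci as the shorter tags do. No tag was particular to Mir9-2, but its sequence left little room for one. Past the 3p arm its hairpin matches that of Mir9-1 up to its last base.

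The loop between the arms also left tags. The loop tags of Mir9-1 and Mir9-3 start at the same place, and they are given because each names a single gene.
Mir9-1 loop: agtggtgtggagtcttca
Mir9-3 loop: agtgccacagagccgtca
Loop tags that start at this place had 157 counts for Mir9-1 and 4 for Mir9-3. Relative to the miRNA total they lay at CPM values, not TMM-scaled, between 5.40 (24h-1) and 45.8 (NT-1) in the first course and between 0.256 (0.5h-2) and 2.19 (24h-2) in the second. The lowest library of the first course was above the highest of the second. Nearly all loop counts were 18-nt tags. Among all miRNA counts, tags of 18 to 19 nt made up 4.55% to 51.5% in the first course. In the second course such tags made up 0.915% to 3.79%. The part of this length difference in the loop counts was not tested. Loop tags are counted with the 3p arm here, of which they made up 7.89% in NT-1 and at most 4.36% in any other library.

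The 5p arm was among the abundant miRNAs of every library. It was the 9th to 16th most abundant miRNA arm in libraries of the first course and the 11th to 25th in those of the second. In the untreated libraries it made up 1.39% of the miRNA counts in NT-1 (14915 counts, Wilson 95% interval 1.37% to 1.42%) and 0.766% in NT-2 (32831 counts, 0.758% to 0.775%). The 3p arm ranked between 52nd and 108th in the first course and between 32nd and 62nd in the second. It made up 0.0581% of the miRNA counts in NT-1 (621 counts) and 0.151% in NT-2 (6488 counts). The 2 arms of the same hairpins thus lay in opposite order in the 2 untreated libraries, NT-1 having more of the guide and NT-2 more of the star.

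To compare levels between libraries, counts were scaled to the library's miRNA count with edgeR's TMM factors (CPM, a measure relative to library size), which correct for the composition of a library. On this scale the 5p arm ranged from 10197 (NT-1) to 27669 (3h-1) in the first course, around a median of 14199. In the second its lowest value was 7289 (24h-2), its median 9241 and its highest 22037 (3h-2). The 3p arm ranged from 349 (3h-1) to 1375 (0.5h-1) in the first course, around a median of 573. In the second its lowest value was 1350 (1h-2), its median 1786 and its highest 4490 (6h-2). For the 5p arm NT-2, 0.5h-2, 6h-2 and 24h-2 lay below every library of the first course, while 1h-2 and 3h-2 lay within its range. For the 3p arm 5 of the 6 libraries of the first course lay below every library of the second.

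**Figure D1:**
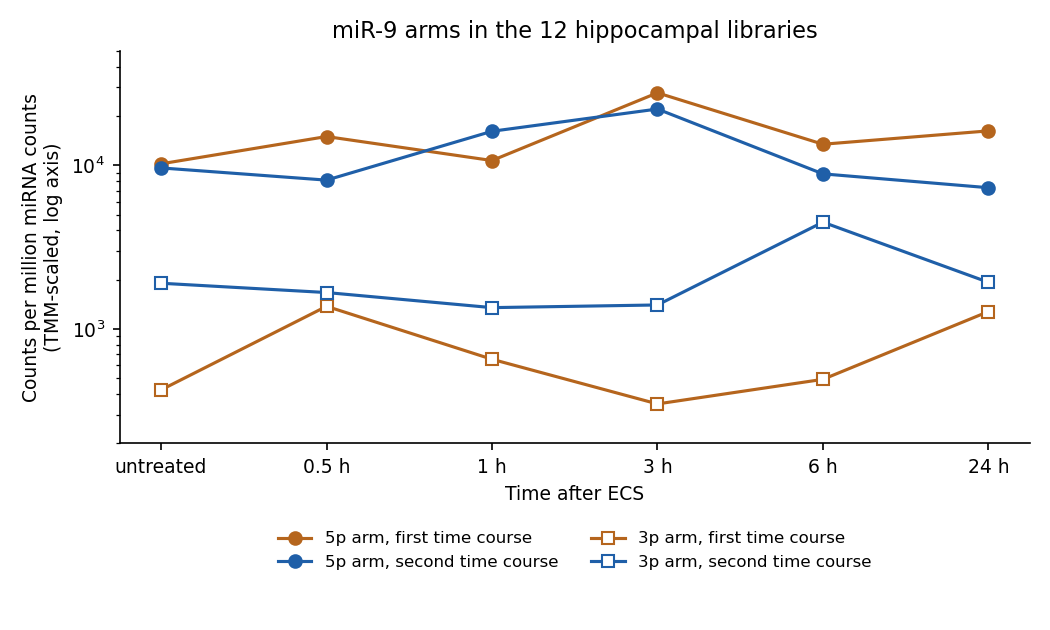
Level of the miR-9 arms in each library, in TMM-scaled CPM on a log axis, by time after ECS; filled circles are the 5p arm and open squares the 3p arm, and lines join libraries of 1 course, each from a different mouse. On this scale the 5p arm is highest at 3 h in both courses (27669 and 22037), and the 3p arm is higher in the second course at every time.

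The first question was whether the shock changed either arm, since the study used ECS to ask how neuronal activity acts on hippocampal miRNAs. In the untreated mice the level of the 5p arm was 10197 and 9627 CPM. At 3 h it was 27669 and 22037, the highest value of each course with TMM scaling. At 1 h it was 10681 and 16116. The pair at 0.5 h had 14967 and 8108, that at 6 h had 13430 and 8855, and that at 24 h had 16206 and 7289. Both libraries at 3 h and both at 1 h were above both untreated libraries, while at 0.5, 6 and 24 h the library of the second course fell below them. As a plain share of the miRNA counts, 3h-1 (2.81%) was again the highest of the first course. In the second course 3h-2 (1.52%) was then just below 1h-2 (1.54%).

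For the 5p arm the log2 fold change against untreated was 1.33 at 3 h (standard error 0.85). The unadjusted p was 0.144 and the adjusted p was 0.995 (quasi-likelihood test of edgeR, Benjamini-Hochberg over 506 arms). Scaled to the total miRNA count alone, the change at 3 h was 1.00 (standard error 1.01). With TMM the change at the other times lay between 0.17 (6 h, standard error 0.84) and 0.43 (1 h, standard error 0.84). Over all times after ECS it was 0.48 (standard error 0.67, adjusted p = 0.999, edgeR, Benjamini-Hochberg). No miR-9 arm passed at any time, where percent called over all 506 arms was 0 at each time and for all times together. At an unadjusted p under 0.05 edgeR had 10, 4, 12, 10 and 10 arms from the shortest time to the longest, and 31 over all times. DESeq2 called 1 arm at 0.5 h, 2 at 3 h and 0 at the other times and over all times. For the 5p arm at 3 h it gave a log2 fold change of 1.69 (standard error 0.75) with an unadjusted p of 0.0242 and an adjusted p of 0.527 (DESeq2, Benjamini-Hochberg).

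Within each course, where a library was set against the untreated library of the same course, the 5p arm at 3 h was higher by 1.44 on the log2 scale in the first and by 1.19 in the second. It was the only time besides 1 h (0.07 and 0.74) at which both differences had the same sign. With 2 mice against 2, an exact permutation test cannot give a p below 0.333, and both the 1 h and the 3 h libraries reached that limit. With the course as a block, the 5p arm at 3 h had a log2 fold change of 1.31 (standard error 0.66) and an unadjusted p of 0.0657, with an adjusted p of 0.669 (edgeR, Benjamini-Hochberg).

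The 3p arm was 425 and 1903 CPM in the untreated mice, a wider spread than that of the 5p arm. At 0.5 h it was 1375 and 1669, whereas by 1 h it was 653 and 1350, and 3 h after ECS 349 and 1402. The pair taken at 6 h had 493 and 4490, and that taken at 24 h had 1277 and 1928. At every time the 2 libraries of a time point overlapped the untreated pair in range. The log2 fold change lay between -0.41 (3 h, standard error 1.18) and 1.10 (6 h, standard error 1.19), and the lowest adjusted p was 0.995 (edgeR, Benjamini-Hochberg). At 6 h it rested on 6h-2 alone, without which it was -1.48. Its sign at 1 h (-0.22, standard error 1.18) depended on the scaling, being 0.12 when counts were scaled to the total miRNA count alone.

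**Figure D2:**
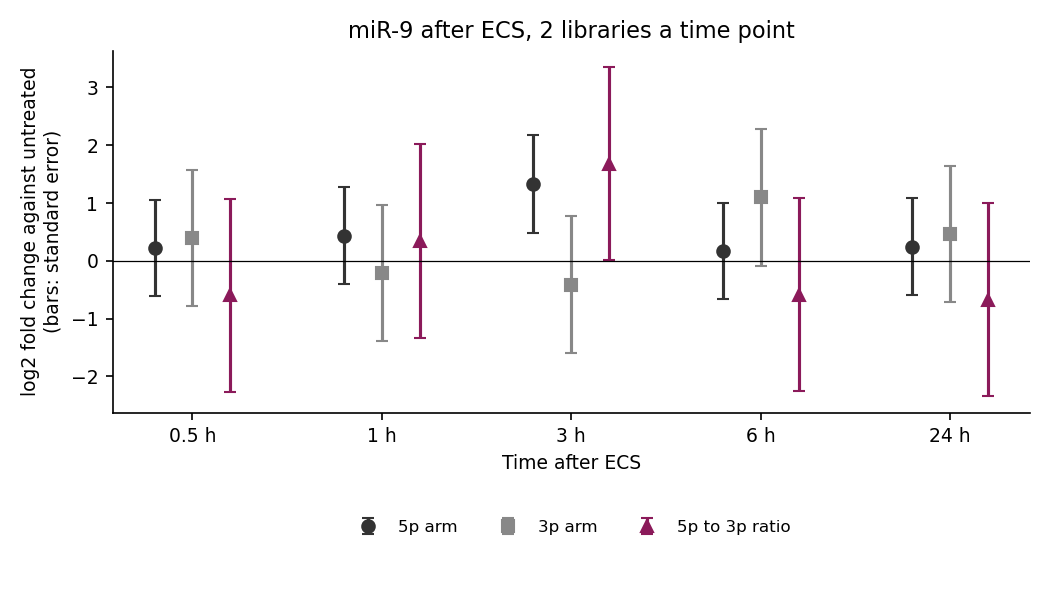
Log2 fold change against untreated at each time after ECS for the 5p arm and 3p arm (edgeR) and for the ratio of the arms (limma), with bars of 1 standard error. The change of the 5p arm at 3 h (1.33) and that of the ratio at 3 h (1.68) are the highest points, and every interval of 2 standard errors reaches 0.

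The mean level of the 5p arm ordered the groups as 3 h (24853 ± 3983, SD, n = 2), 1 h (13398 ± 3843), 24 h (11748 ± 6305), 0.5 h (11538 ± 4850), 6 h (11143 ± 3235) and untreated (9912 ± 403). Only the step from 3 h to 1 h was larger than the spread of both neighbours. For the 3p arm the order was 6 h (2492 ± 2827, SD, n = 2), 24 h (1603 ± 460), 0.5 h (1522 ± 208), untreated (1164 ± 1045), 1 h (1002 ± 493) and 3 h (875 ± 745). None of these steps exceeded the spread of both neighbours. The 3 h group thus had the highest mean for the guide and the lowest for the star.

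The ratio of the arms compares 2 products of the same hairpins in the same library, so no scaling between libraries enters it. The 5p arm outnumbered the 3p arm in every library. In the first course the ratio was 24.0 in NT-1, 10.9 in 0.5h-1, 16.4 in 1h-1, 79.4 in 3h-1, 27.3 in 6h-1 and 12.7 in 24h-1. In the second it was 5.06 in NT-2, 4.86 in 0.5h-2, 11.9 in 1h-2, 15.7 in 3h-2, 1.97 in 6h-2 and 3.78 in 24h-2. The ratio was highest at 3 h in both courses, and at every time it was lower in the second.

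Against the untreated library of its own course, the log2 ratio at 3 h was higher by 1.72 in the first and by 1.64 in the second. Values at 0.5 h (-1.14 and -0.06) and 24 h (-0.92 and -0.42) were below the untreated library in both, and those at 1 h (-0.55 and 1.24) and 6 h (0.18 and -1.36) differed in sign. These differences rest on which untreated library is the reference: against the untreated library of the other course, the log2 ratio at 3 h was 3.97 higher in 3h-1 and fell by 0.61 in 3h-2, whereas the 5p level stayed higher in both, by 1.52 and 1.11. In the fit over 140 miRNAs with both arms measured, without the course as a block, the change at 3 h was 1.68 (standard error 1.67, adjusted p = 0.998, limma, Benjamini-Hochberg). At the other times the change lay between -0.67 (24 h) and 0.34 (1 h). Of the 140 ratios 0 passed at any time (percent called 0), with 1, 1, 0, 5 and 0 at an unadjusted p under 0.05 at the 5 times in order and 2 over all times (limma). Over all times after ECS the change was 0.03 (standard error 1.29), and its sign turned when a single library was left out.

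**Figure D3:**
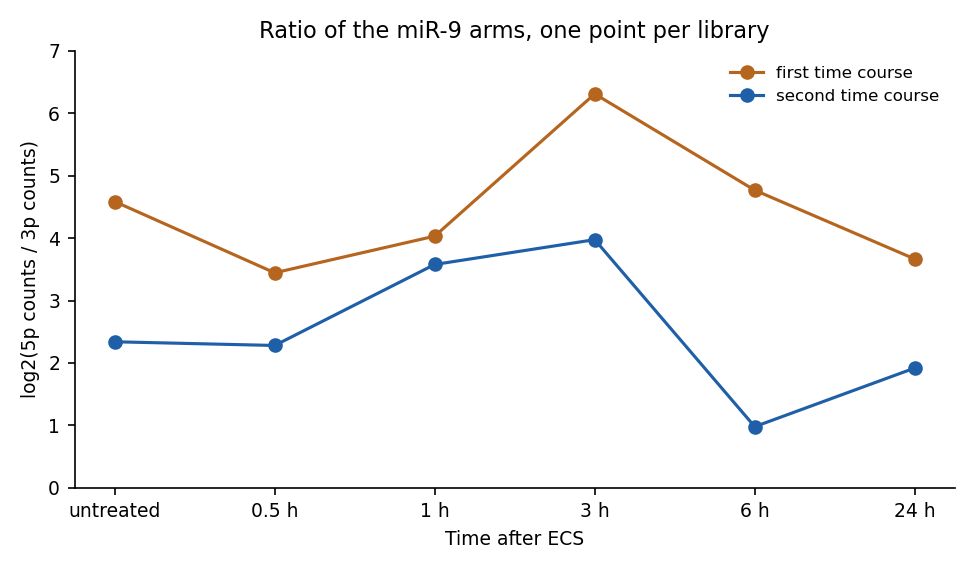
Log2 ratio of 5p to 3p counts of miR-9 in each library by time after ECS, for the first and the second course; lines join libraries of 1 course. All 6 points of the second course lie below the point of the first at the same time, and both courses are highest at 3 h (6.31 and 3.97).

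The second question was how far miR-9 differed between the courses. The study made the second as a biological replicate of the first, but reports that libraries clustered by course rather than by treatment. It calls this a batch effect and judged the sequencing unlikely to give accurate changes in miRNA level. Those changes it measured by quantitative PCR instead. The log2 ratio of the arms was 4.47 ± 1.04 in the first and 2.51 ± 1.10 in the second (SD, n = 6 each), lower in the second for 6 of 6 times. The difference of -1.96 had p = 0.03125 (two-sided exact permutation over 64 flips within time points), and no smaller p can be reached with these pairs. In the fit over 140 miRNAs its standard error was 0.72 and its adjusted p was 0.0485 (limma, Benjamini-Hochberg). Of the 140 ratios 28.6% were called in either direction and 10.7% were called lower in the second course, as miR-9 was. The call is close to the threshold, since leaving out any single library gave adjusted p-values from 0.0533 to 0.102 (limma, Benjamini-Hochberg) at changes of -2.26 to -1.59. Without both untreated libraries the change was -1.90 (standard error 0.76, adjusted p = 0.0832, limma, Benjamini-Hochberg). The star thus averaged 5.04% of all miR-9 counts in the first course (1.24% to 8.42%) and 17.0% in the second (5.98% to 33.6%).

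Across the 140 miRNAs the median change of the arm ratio between the courses was 0.22, and 18 changed further in the negative direction than miR-9. The SD of the log2 ratio of miR-9 over the 12 libraries was 1.44, below the median SD of 1.61, and 84 of the 140 miRNAs had a larger one. Among the 43 miRNAs with both arms at 10 counts or more in every library, the median SD was 1.35, below that of miR-9, and 19 had a larger one. Of these 43, 8 changed further in the negative direction, around a median change of -0.24.

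**Figure D4:**
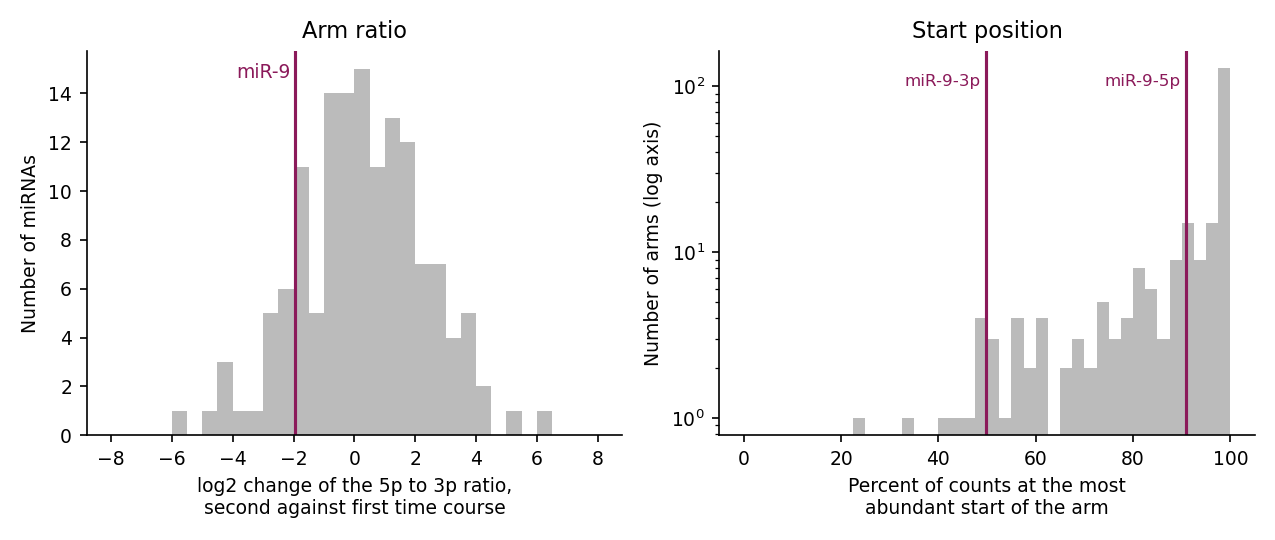
Left, number of miRNAs (of 140) by the log2 change of their 5p to 3p ratio from the first to the second course; right, number of arms (of 235 with at least 1000 counts, log axis) by the percent of their counts at their most abundant start. Lines mark miR-9, whose ratio change is -1.96, and its arms, with 90.8% of the 5p and 49.8% of the 3p counts at 1 start.

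Which arm moved depended on the scaling. With TMM the 3p arm was higher in the second course, with a log2 fold change of 1.53 (standard error 0.50) and an adjusted p of 0.0265, and it was higher at 6 of 6 time points. The call was lost in 8 of the 12 fits that left out 1 library, where adjusted p-values ran from 0.0298 to 0.0803 (edgeR, Benjamini-Hochberg), and without both untreated libraries (log2 fold change 1.31, adjusted p = 0.0871, the same test). The 5p arm had a log2 fold change of -0.41 (standard error 0.38, adjusted p = 0.397, both edgeR, Benjamini-Hochberg). Of the 506 arms 37.5% were called in either direction, 21.1% higher and 16.4% lower. Scaled to the total miRNA count alone, the 3p arm had a log2 fold change of 0.80 (standard error 0.49, adjusted p = 0.200). The 5p arm then fell by 1.15 (standard error 0.41, adjusted p = 0.0333, both edgeR, Benjamini-Hochberg). The median change over all arms was 0.32 with TMM and -0.41 with the total count, and the split of calls moved from 107 higher and 83 lower to 50 higher and 142 lower. Relative to these medians the 3p arm was higher by about the same amount under both scalings, and the 5p arm lower. As a plain share of the miRNA counts, the 5p arm was 1.94% ± 0.489 in the first and 0.943% ± 0.469 in the second course (SD, n = 6 each), lower at 6 of 6 time points (two-sided exact permutation, p = 0.03125). The plain share of the 3p arm was 0.0998% ± 0.0593 and 0.159% ± 0.0691 (SD, n = 6 each), higher in the second at only 4 of 6 time points (two-sided exact permutation, p = 0.156).

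Other properties of the libraries moved with the course. miRNA counts were 10.1% to 32.7% of accepted reads in the first and 50.9% to 69.7% in the second. Of the miRNA counts 4.55% to 51.5% were only 18 to 19 nt long in the first and 0.915% to 3.79% in the second. Among markers of other cell types, the summed level of 3 miRNAs of endothelium and vessel wall was a CPM (not TMM-scaled) of 62626 to 143957 in the first and 5557 to 16366 in the second. Nearly all of this was miR-143-3p, a miRNA of smooth muscle, which was lower in the second course (log2 fold change -2.47, standard error 0.43, adjusted p = 0.00173, edgeR, Benjamini-Hochberg). The endothelial miR-126a-3p of this list had a log2 fold change of 1.40 (adjusted p = 0.0615) and miR-145a-5p one of 0.05 (adjusted p = 0.956, the same test). The 3 leukocyte arms summed to 993 to 9779 in the first and 158 to 2316 in the second, almost wholly from miR-142-5p, while miR-142-3p and miR-223-3p were at a median of 0 and 0.249. The 2 erythroid arms, miR-451a-5p and miR-144-3p, summed to 167 to 1913 and to 49.4 to 151. Of the pair, miR-144-3p was lower in the second course (log2 fold change -3.69, adjusted p = 0.00201), whereas miR-451a-5p had a log2 fold change of 1.71 and did not pass (adjusted p = 0.0591, both edgeR, Benjamini-Hochberg). The 3 muscle arms summed to 2573 to 10951 and to 7705 to 16883, with miR-133a-3p at 0 to 1.51. The 4 oligodendrocyte arms found, of miR-219 and miR-338, summed to 2698 to 13937 and to 3906 to 18164. Most of these 2 sums was miR-1a-3p and miR-219a-3p, both higher in the second course (log2 fold change 1.40, adjusted p = 0.0285, and 1.18, adjusted p = 0.0476, edgeR, Benjamini-Hochberg). The other tested arms, miR-206-3p, miR-219a-5p and miR-338-3p, did not pass, at log2 fold changes of 0.72 to 1.36. The 4 neuronal arms summed to 119635 to 296487 in the first and 54613 to 156898 in the second. Most of this was miR-124a-3p and miR-128-3p, abundant in every library, while miR-132-3p lay at only 54.6 to 164. Of the neuronal arms only miR-138-5p was called, lower in the second course (log2 fold change -1.68, adjusted p = 0.00811, edgeR, Benjamini-Hochberg). The part of any of these in the difference of miR-9 was not tested.

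miR-9 was set beside 10 other brain miRNAs described with it in neural development. Between the courses 1 of the 10 was higher, miR-184-3p (log2 fold change 2.27, standard error 0.64, adjusted p = 0.0162, edgeR, Benjamini-Hochberg), and 1 was lower, miR-138-5p, known to limit dendritic spine growth (-1.68, standard error 0.42, adjusted p = 0.00811, the same test). Over all 506 arms the share called was 37.5%, so 2 of 10 is not above the background. The other 8 did not pass, among them miR-124a-3p, a miRNA of neurons, with a log2 fold change of -0.79 (standard error 0.54), and miR-128-3p with 0.40 (standard error 0.40). The median change of the 10 was 0.39, beside 0.32 over all arms. None of the 10 was called at any time after ECS by edgeR, where no arm of the 506 was.

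The 2 arms of miR-9 did not vary together. Over the 12 libraries the log2 levels of the arms had Pearson's r = -0.46, and r = -0.31 after each course was centred on its own mean. Among the 213 arms that reached 10 counts in all libraries, those whose level was most like that of the 5p arm were miR-1843b-5p (r = 0.844), miR-488-3p (0.785), miR-100-5p (0.773), miR-708-3p (0.772) and miR-99a-5p (0.768). After centring, miR-1843b-5p came first again (0.856), followed by miR-582-3p (0.852), and miR-708-3p, miR-99a-5p and miR-100-5p stayed among the 5. Those most like the 3p arm were miR-26b-5p (0.951), miR-21a-5p (0.939), miR-495-3p (0.932), miR-29c-3p (0.922) and miR-221-5p (0.921), and the same 5 led after centring, at 0.805 to 0.893. These correlations describe 12 libraries that share their scaling and differ in tag length and course.

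The tags of miR-9 themselves differed from the annotated mature forms at both ends. On each arm 8 tags held at least 1% of the counts, together 98.8% of the 5p arm and 96.4% of the 3p arm. The most abundant are shown to make the end differences visible, with the seed (bases 2 to 8 of the tag) in capitals.
5p, start at base 1, 20 nt: tCTTTGGTtatctagctgta
5p, start at base 1, 21 nt: tCTTTGGTtatctagctgtat
5p, start at base 1, 23 nt: tCTTTGGTtatctagctgtatga
5p, start at base 2, 20 nt: cTTTGGTTatctagctgtat
5p, start at base 3, 21 nt: tTTGGTTAtctagctgtatga
3p, start at base 1, 22 nt: aTAAAGCTagataaccgaaagt
3p, start at base 2, 21 nt: tAAAGCTAgataaccgaaagt
3p, start at base 2, 22 nt: tAAAGCTAgataaccgaaagta
3p, start at base 2, 20 nt: tAAAGCTAgataaccgaaag

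Most 5p counts began at base 1 of the annotated mature miRNA (90.8%, 344523 counts), with 6.79% at base 2 and 2.19% at base 3. The 3p counts were split almost evenly between base 1 (20051 counts, 49.8%) and base 2 (19921 counts, 49.4%). The star therefore occurred as a pair of isomiRs whose seeds, marked above, are UAAAGCU for tags from base 1 and AAAGCUA for tags that begin at base 2. Neither seed, nor any of the 3 seeds of the 5p arm, was found in another mature miRNA of the 1679 in the RefSeq table. Among 235 arms with at least 1000 counts, the median share at the most abundant start was 98.1%. A total of 8 arms had a lower share than miR-9-3p, and 74 had a lower share than miR-9-5p.

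The share of the star that began at base 2 was 34.3% in NT-1, 64.8% in 0.5h-1, 68.9% in 1h-1, 71.8% in 3h-1, 62.8% in 6h-1 and 67.0% in 24h-1. In the second course it was 49.3% in NT-2, 37.9% in 0.5h-2, 45.3% in 1h-2, 44.6% in 3h-2, 47.7% in 6h-2 and 45.3% in 24h-2. The 5 libraries after ECS of the first course thus lay above all others, and NT-1 lay below all others. The means were 61.6% ± 13.7 (SD, n = 6) and 45.0% ± 3.90 (SD, n = 6), lower in the second for 5 of 6 times (two-sided exact permutation, p = 0.0625, adjusted p = 0.0938 by Benjamini-Hochberg over the 12 shares tested). Among tags of 20 nt or longer the NT-1 value was 47.5% and the means were 68.4% ± 11.1 and 45.1% ± 3.98 (SD, n = 6 each). The difference did not pass the threshold, and it was -16.6 percentage points with all libraries and -22.9 without the untreated pair.

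Start and end were linked on the star. Tags that ended at base 22 of the annotated arm began at base 2 in 36.4% of cases. Those that ended at base 21 did so in 82.2%, those at base 23 in 77.6% and those at base 20 in 7.45%. For tags that ended at base 22 the share from base 2 was 63.2% in the pooled first course and 29.5% in the second. On the 5p arm the tags that ended at base 20 nearly all began at base 1 (0.358% at base 2 among the 2 starts), while those that ended at base 21 began at base 2 in 12.8% and those at base 23 in 15.3%. This last share was 74.3% of 4067 counts in the pooled first course and 12.1% of 74295 in the second. The first of these 5p ends gives the 20-nt tag shown above, the most abundant miR-9 tag with 153797 counts.

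The share of 5p counts that began after base 1 was 9.92% ± 3.40 in the first and 8.92% ± 3.48 in the second course (SD, n = 6 each, two-sided exact permutation, p = 0.6875). It was lowest in NT-1 (6.10%) and highest in NT-2 (15.6%), so its extremes were the 2 untreated libraries. With 1 untreated mouse in each course, neither start share was tested against ECS.

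Tag lengths lay further apart. On the 5p arm, where 90.8% of the counts began at base 1, they reflect mainly the 3′ end. On the star, with 2 main starts, they mix both ends. The annotated length of miR-9-5p is 23 nt, and tags of 23 nt or longer made up 0.0369% (6h-1) to 2.10% (NT-1) of the 5p counts in the first course and 6.11% (6h-2) to 38.8% (3h-2) in the second. The means were 0.782% ± 0.881 and 25.6% ± 13.0 (SD, n = 6 each), higher in the second at 6 of 6 time points. On the star, tags of the annotated 22 nt made up 3.02% (6h-1) to 45.6% (0.5h-1) in the first and 51.8% (6h-2) to 62.0% (1h-2) in the second. Their means were 20.9% ± 18.2 and 58.8% ± 3.90 (SD, n = 6 each), again higher at 6 of 6 time points. These star tags include the 22-nt tag from base 2 (7395 counts), which runs past the annotated end. The 21-nt tag from base 2 (8046 counts), which stops at the annotated end, is not among them. The libraries of the 2 courses did not overlap in either share.

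Short tags had the opposite order. Those of 18 to 19 nt were 16.7% ± 23.2 of the 5p counts in the first course and 1.19% ± 1.05 in the second (SD, n = 6 each), and NT-1 stood at 63.4%. On the star they were 17.0% ± 21.2 and 0.714% ± 0.241 (SD, n = 6 each), and NT-1 stood at 58.9%. Without the untreated pair the difference between the courses shrank from -15.5 to -6.14 percentage points on the 5p arm and from -16.3 to -7.93 on the star. Of the 12 shares of start and length tested, 7 had p = 0.03125, the smallest p possible (exact permutation test, two-sided). These were 18 to 19 nt, 22 nt and 23 nt or longer on the 5p arm, and the same lengths and 20 nt on the 3p arm. Benjamini-Hochberg adjustment over the 12 gave each of them 0.0536, so none passed 0.05. With 7 shares at the smallest p possible, none of these 7 could have passed, so the adjusted values do not decide whether they differed. The length shares of an arm also add up to the whole arm, so they are not independent tests. Both arms of miR-9 shared the length difference with the miRNA counts as a whole, in which tags of 18 to 19 nt made up 51.5% in NT-1.

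**Figure D5:**
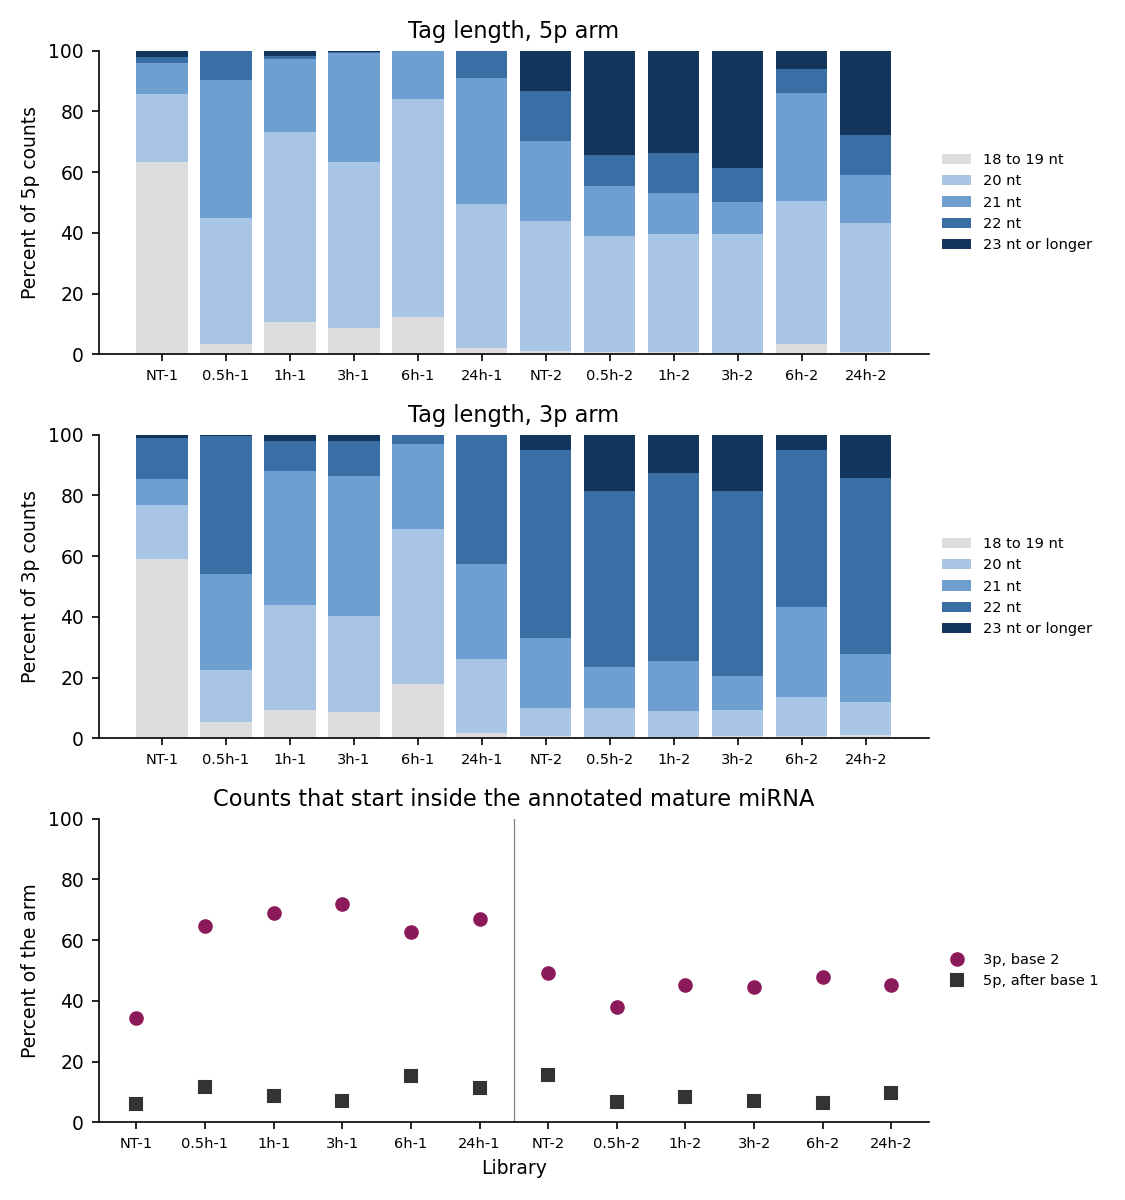
Top and middle, percent of the counts of each miR-9 arm by tag length in each library (stacked bars sum to 100); bottom, percent of the counts that start at base 2 of the 3p arm (circles) or after base 1 of the 5p arm (squares), with a line between the courses. Tags of 23 nt or longer reach 38.8% of the 5p arm in the second course and at most 2.10% in the first, and the 3p base 2 share is 62.8% to 71.8% in the first course outside NT-1 (34.3%) and 37.9% to 49.3% in the second.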

How the data were processed

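The authors isolated total RNA with Trizol, recovered small RNAs from denaturing gels, ligated adapters with T4 RNA ligase (Illumina small RNA kit) and sequenced on a Genome Analyzer IIx. They trimmed adapters with the miR-Intess pipeline and deposited, for each library, raw counts of each distinct tag, neither aligned nor normalized.

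From these counts, tags of 18 nt or longer that matched a GENCODE M21 (GRCm38) miRNA hairpin over their whole length were summed per arm. Tags matching several miRNA names were split equally, and shorter tags were not counted. Exact matching leaves out tags with sequencing errors or added bases. Reads were not collapsed to molecules, so intervals cover counting error only. Arms needed 10 counts in 2 or more libraries, and the 506 that passed were tested with edgeR 4.0.16 (TMM, quasi-likelihood) in R 4.3.3, with all 12 libraries as 6 groups of 2, or with time point as covariate between courses. Arm ratios, log2((5p + 0.5)/(3p + 0.5)), of 140 miRNAs were tested with limma 3.58.1. Calls were made under 0.05 after Benjamini-Hochberg adjustment. An alternative tool was DESeq2 1.42.0. Shares and single ratios were tested by exact permutation in Python 3.11.15 with scipy 1.17.1. The fits were tested on simulated data. No column of per-sample values was left out.

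Groups and courses came from the labels. Replicate numbers pair the libraries, because the study made each course separately and libraries with the same number deviated together from their group means (mean r 0.568, from 0.364 to 0.814, over 15 pairs of time points and 213 arms). Libraries came from separate mice. Members, marker lists and named arms (the 5 arms most like each miR-9 arm, the listed brain and cell type miRNAs, and tags with at least 1% of an arm) were chosen with earlier results of these data known.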

Additional observations from a re-analysis of the deposited data

Results flagged for a closer look

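Among 6 libraries of a course, an extreme value was singled out where the gap to the next exceeded what Dixon's test allows at 95%. Over 34 groups of values 8 were set apart, where chance gives about 1 in 20, or 1.7. In the first course, 3h-1 had the highest 5p level, 27669 CPM, with the next library at 16206. NT-1 had the lowest share of 3p counts starting at base 2 (34.3%, next 62.8%) and the highest shares of tags of 18 to 19 nt, 63.4% of the 5p arm (next 12.3%) and 58.9% of the 3p arm (next 17.8%). In the second course, 6h-2 had the highest 3p level, 4490 CPM (next 1928), the highest share of miRNA counts on the 3p arm, 0.293% (next 0.161%), and the highest share of 5p tags of 18 to 19 nt, 3.29% (next 1.03%). NT-2 had the highest share of 5p counts starting after base 1, 15.6% (next 9.65%). Of the 8 values, 4 come from the untreated libraries, which are the reference for every change after ECS. The causes were not tested.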

How the results depend on the processing

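Between the courses, the higher 3p level kept its direction under all alternatives but lost its call with total count scaling (0.80), with at least 50 counts in 6 libraries (1.14), with tags of 1 miRNA only (1.33), with tags of 20 nt or longer (1.24) and in 8 of 12 fits without 1 library. Leaving out 1 library gave 1.18 to 1.77 for the 3p arm and -0.68 to -0.27 for the 5p arm, which was called with total count scaling only (-1.15). The arm ratio lost its call with tags of 20 nt or longer (-1.95) and in every fit without 1 library (-2.26 to -1.59). Further fits added after seeing the data left out both untreated libraries (3p 1.31, ratio -1.90) or exchanged their replicate numbers (3p 0.88, ratio -1.21), and both calls were lost in each. With the numbers exchanged 0 arms (74 at an unadjusted p under 0.05, edgeR) and 2 ratios were called. The number of arms called was 93 of 254 tested with the stricter filter, a smaller set than the 506, and 115 to 184 without 1 library. It was lowest without 1h-2 (115) and 1h-1 (116), and 255 with DESeq2. The number of ratios called was 22 when both arms needed 10 counts in every library, where 43 were tested, and 29 to 38 without 1 library.

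For ECS, the 3p change at 1 h reversed with total count scaling (0.12), without a count filter (0.070), with the replicate block (0.049) and in DESeq2 with the block (0.13), a fit added after seeing the data. With the untreated numbers exchanged and the replicate block, the 3p change over all times reversed (-0.18). DESeq2 called 1 arm at 0.5 h and 2 at 3 h, and with the block 2, 5 and, over all times, 1. The block in edgeR and limma called 0 arms and 0 ratios and changed no other call. Leaving out 1 library gave ranges, from the shortest time to the longest and then all times, of -0.16 to 0.91, 0.29 to 0.74, 1.15 to 1.68, -0.16 to 0.44, -0.47 to 0.72 and 0.37 to 0.81 for the 5p arm. For the 3p arm they were 0.08 to 1.97, -0.67 to 1.30, -1.54 to 1.14, -1.48 to 2.43, -0.017 to 1.90 and -0.19 to 1.75. For the ratio they were -1.72 to 0.52, -0.78 to 1.46, 0.51 to 2.85, -2.48 to 1.30, -1.79 to 0.45 and -1.09 to 1.16. The number of arms called over all times was 0 to 1 (1 without NT-2), and that of ratios at 6 h 0 to 1 (1 without 6h-1). The 5p start share moved between -3.10 and 0.58 percentage points when 1 time point was left out. The causes were not tested. With 2 mice a group, standard errors of 0.84 to 0.85 for the 5p arm and 1.18 to 1.19 for the 3p arm limit what could be detected, beside counts of at least 298 an arm and library.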

Other observations

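Tags whose last base was not that of the hairpin were left out of all values above. Those with 1 added base were counted apart as a share of the arm's exact tags and these tags together. On the 5p arm an added T averaged 3.62% over the 12 libraries (14583 counts, 1.78% to 5.29%) and an added A 2.44% (10751 counts, 0.566% to 4.12%), while C and G averaged 0.574% and 0.362%. On the 3p arm an added T averaged 3.07% (1432 counts) and an added A 2.11% (475 counts). An added A on the star was 3.68% ± 3.32 (SD, n = 6) in the first course and 0.531% ± 0.0761 (SD, n = 6) in the second, lower at 5 of 6 times (two-sided exact permutation within time points, p = 0.0625, adjusted p = 0.167 by Benjamini-Hochberg over the 8 shares tested). The adjusted p of the added T was 0.3 on the 5p arm and 0.333 on the 3p arm (exact permutation tests, the same adjustment). No share of added bases passed. An added base that equals the next base of the hairpin is counted as an exact tag, so these shares depend on where tags end. That next base is A after base 22 of the star and T after base 20 of the 5p arm. Tag ends differed between the courses, and their part in these shares was not tested.

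The strand opposite to the Mir9 hairpins gave 9 tags with 34 counts over the 12 libraries, 13 of them in NT-1 and 0 in 6h-1 and 1h-2. A miRNA gene, Gm25641, is annotated opposite Mir9-1.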
